A study of Mus musculus with 24 samples.

Results

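The Tob/Btg antiproliferative family was followed through its 5 members measured in mouse hippocampus, namely Tob1, Tob2, Btg1, Btg2 and Btg3. They were taken by gene name from 47593 genes in the count table, of which 31032 had at least 1 count in some library. All 5 passed the filter on low counts in every comparison. The libraries came from C57BL/6J mice, 8 to 12 weeks old, labelled either wild type (WT) or Tob knockout (Tob-KO). Hippocampi were taken from naive mice, which received no conditioning, or from mice killed 3 h, 1 h or 15 min after fear conditioning, in which a tone was paired with foot shocks. The resulting 8 groups held 3 libraries each, described in the labels as biological replicates, so p-values measure the spread between those samples. No transgene, virus or drug is named for either genotype, and the extent of the deleted part of Tob in the Tob-KO line is not given in the sources used here.

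Proteins of this family share an amino-terminal BTG domain that binds the catalytic subunits of the CCR4-NOT complex, the main enzyme that shortens the poly(A) tails of messenger RNAs. Tob1 and Tob2 also bind cytoplasmic poly(A)-binding protein and thereby link the deadenylase to messages, while the shorter Btg1 and Btg2 work with partners such as the arginine methyltransferase Prmt1. Members slow cell division when overproduced, and Btg2 is known as an early gene that is switched on by stimulation and by p53.

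The stretch of 250 bases before the RefSeq start (GRCm38.p6) is given for Btg2 and Tob1, the members with called differences, and for Btg1, whose pattern came closest to a call. Stimulus-responsive promoters often carry the cyclic AMP response element TGACGTCA. Capitals mark this element, or its shorter form TGACG or CGTCA where it stands alone, and each sequence is read 5′ to 3′ on the gene's own strand.
Btg2, chr1:134079156-134079405, reverse strand: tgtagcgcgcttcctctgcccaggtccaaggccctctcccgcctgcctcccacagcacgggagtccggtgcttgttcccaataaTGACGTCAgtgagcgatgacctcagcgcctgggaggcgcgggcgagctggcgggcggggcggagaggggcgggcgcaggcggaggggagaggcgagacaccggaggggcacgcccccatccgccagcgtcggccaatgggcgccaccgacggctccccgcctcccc
Btg1, chr10:96616751-96617000, forward strand: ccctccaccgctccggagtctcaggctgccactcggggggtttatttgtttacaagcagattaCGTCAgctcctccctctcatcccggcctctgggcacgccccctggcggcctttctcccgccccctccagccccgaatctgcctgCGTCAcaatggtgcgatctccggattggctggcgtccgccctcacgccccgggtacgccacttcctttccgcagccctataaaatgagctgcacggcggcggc
Tob1, chr11:94211204-94211453, forward strand: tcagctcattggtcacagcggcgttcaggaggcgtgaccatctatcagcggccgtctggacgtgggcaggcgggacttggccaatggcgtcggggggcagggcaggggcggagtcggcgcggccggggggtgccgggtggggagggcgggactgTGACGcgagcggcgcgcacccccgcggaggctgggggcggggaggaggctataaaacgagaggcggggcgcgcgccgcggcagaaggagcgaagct
Of the 5 members Btg2 alone held the full element, with its last base 159 bases upstream of the start. Searched on both strands, TGACGTCA was found in 1.55% of 32851 promoter windows of this length. Btg1 held the shorter form at 183 and 99 bases upstream and Tob1 at 92 bases, counted likewise, and this form, which every full element also contains, was found in 17.8% of all windows. The Tob2 window and both Btg3 windows held neither form. The CArG box bound by serum response factor was found in 1.47% of windows and in no window of the family. The letters TATAAA, found on either strand in 12.4% of windows, were present once in Btg1 and once in Tob1. These matches describe the windows and are not known to be used sites.

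The genes lie on 5 chromosomes of GRCm38, as annotated in GENCODE M21. Tob1 (ENSMUSG00000037573) occupies chr11:94211454-94215495, Tob2 (ENSMUSG00000048546) chr15:81848272-81858796, Btg1 (ENSMUSG00000036478) chr10:96617006-96622809, Btg2 (ENSMUSG00000020423) chr1:134075170-134079120 and Btg3 (ENSMUSG00000022863) chr16:78332637-78377192. No stretch of 50 exonic bases was shared between any pair of members, and Tob1 and Btg2 shared none with any other gene. Of 3963 stretches in Btg3, 718 occurred elsewhere, 707 of them in Gm7334, which had 7 to 27 counts per library against 218 to 426 for Btg3. Btg1 shared 130 of 5226 stretches with Gm14519, which had 0 to 3 counts. Btg3 also overlaps Cxadr, a cell adhesion receptor gene on the opposite strand with 640 to 1065 counts. Whether the counting used strand is not given in the sources used here, so the counts of Btg3 and Cxadr may not be fully separated. Tob2 overlaps the antisense gene Gm49476, which was not matched in the table. Among relatives by name, Btg4 had 2 counts over all 24 libraries and the pseudogenes Btg1-ps1 and Btg1-ps2 had 0, which allows up to 3 counts.

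Total counts ran from 28847989 to 41595972 per library. Levels are given as CPM, counts scaled to library size after TMM normalization, and a gene was called at an adjusted p of at most 0.05 over all genes tested. Some passages say whether the libraries of compared groups overlapped. The share of all genes whose libraries did not overlap was not counted, so those statements only describe the members. The 10 markers of choroid plexus, a secretory tissue beside the hippocampus, were all detected and summed to between 25.1 and 4948 CPM over the 24 libraries. Their sum was 43.2 to 2480 CPM in naive WT mice, 25.1 to 42.2 CPM in WT at 15 min, 62.0 to 3368 CPM in Tob-KO at 15 min and 2195 to 3192 CPM in Tob-KO at 1 h. The 7 blood cell markers summed to 69.6 to 134 CPM in WT at 15 min against 41.1 to 56.1 CPM in Tob-KO at 15 min. The 6 hippocampal neuron markers were all detected, at 5475 to 6977 CPM in sum. In whole tissue, fewer cells of a type and less RNA per cell cannot be told apart.

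Tob1, the gene named by the knockout, ran against the label, with higher counts in the libraries labelled Tob-KO. The WT replicates of Tob1 read 43.0, 37.6 and 33.9 CPM when naive, then 44.2, 44.1 and 42.8 CPM at 15 min, 44.5, 39.8 and 37.1 CPM at 1 h and finally 37.8, 39.0 and 40.7 CPM at 3 h. Those labelled Tob-KO read 52.1, 55.4 and 52.7 CPM when naive, then 66.5, 68.3 and 65.9 CPM at 15 min, 67.7, 66.3 and 59.1 CPM at 1 h and finally 53.1, 55.9 and 54.0 CPM at 3 h. All 12 libraries labelled Tob-KO lay above all 12 WT libraries. A gene-level count does not show which exons the reads came from, and reads outside a deleted part cannot check the deletion. Directions by genotype below therefore rest on the labels.

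**Figure D1:**
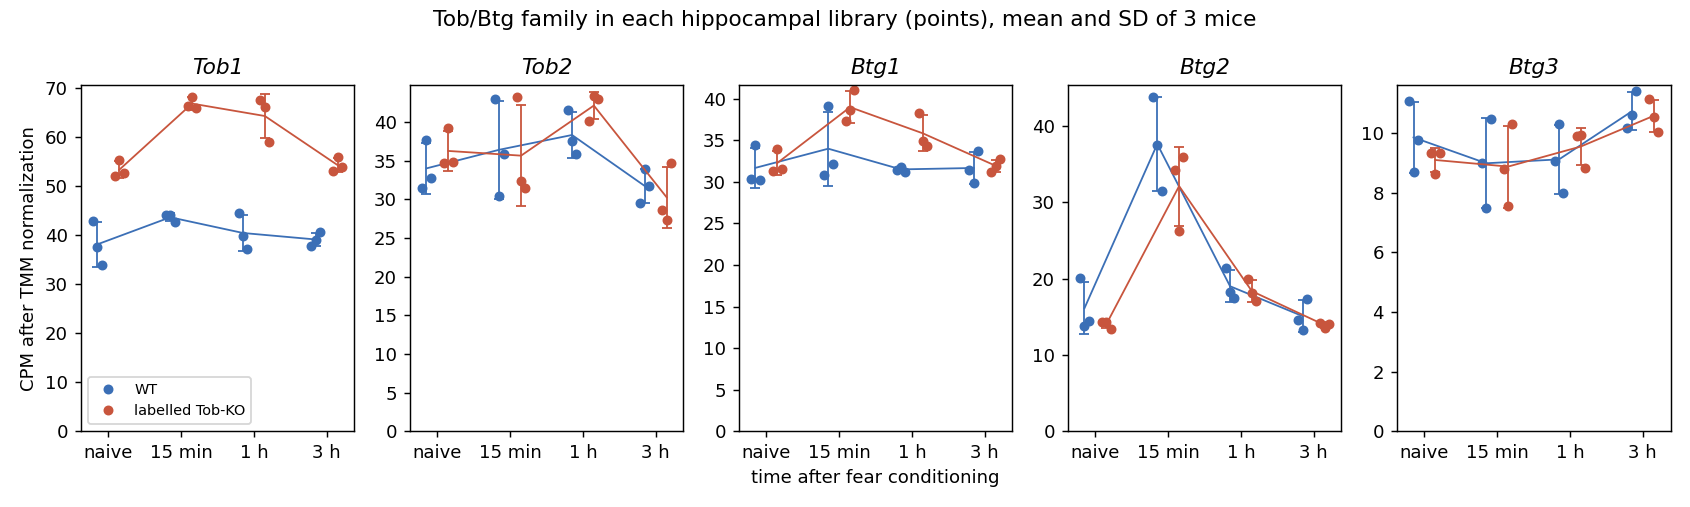
Level of each member (vertical axis, CPM after TMM normalization, from 0) by time after fear conditioning (horizontal axis). Points are the 24 libraries, lines join group means and error bars are SD of 3. Tob1 in libraries labelled Tob-KO stands above WT throughout, and Btg2 peaks at 15 min in both genotypes, at a mean of 37.6 CPM in WT and 32.1 CPM in libraries labelled Tob-KO.

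At each time point the genotypes were compared by the edgeR exact test on 6 libraries. The log2 difference of Tob1 (labelled Tob-KO minus WT) was 0.49 when naive (SE 0.088, adjusted p = 0.0231), 0.61 at 15 min (SE 0.054, adjusted p = 1.17e-12), 0.67 at 1 h (SE 0.074, adjusted p = 6.45e-11) and finally 0.47 at 3 h (SE 0.047, adjusted p = 1.36e-07). Tob1 was the 1 member of 5 called in each. Over all genes tested, 0.0381% were called in naive mice, 0.746% at 15 min, 0.121% at 1 h and 0.0657% at 3 h. With edgeR's quasi-likelihood test on the same libraries the adjusted p of Tob1 was 0.80 when naive, 0.0687 at 1 h and 0.067 at 3 h, so that only the 15 min call held under both tests. The naive call was also lost without WT replicate 2 (adjusted p = 0.32), without WT replicate 3 (0.38) and without Tob-KO replicate 2 (0.25). Tob1 was called at each time point by a quasi-likelihood fit of all 24 libraries (highest adjusted p = 0.00705, at 3 h). DESeq2 also called it at each (highest adjusted p = 0.00368, when naive).

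Over all time points, with time as a factor in edgeR's quasi-likelihood test, Tob1 was 1.47-fold higher in libraries labelled Tob-KO (95% interval of the log2 difference 0.48 to 0.64). It was again the 1 member called of 5, where 0.462% of 19500 genes were called. With a choroid plexus score as covariate this log2 difference was 0.54 and was still called (adjusted p = 2.21e-09).

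None of the other 4 members was called between genotypes at any time point or over all. Btg1, which binds Prmt1 and Cnot7, had medians of 31.4 CPM in WT (29.9 to 39.1, 12 libraries) and 34.1 CPM in libraries labelled Tob-KO (31.2 to 41.1, 12 libraries). Its log2 difference over all time points was 0.11 (95% interval 0.02 to 0.19, adjusted p = 0.23 by edgeR's quasi-likelihood test). At 1 h the WT replicates of Btg1 read 31.4, 31.8 and 31.2 CPM, and those labelled Tob-KO read 38.3, 34.9 and 34.3 CPM. The log2 difference of 0.19 was not called (adjusted p = 0.67, edgeR exact test).

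Btg2 went the other way over all time points, by a log2 difference of -0.15 (95% interval -0.29 to -0.01, adjusted p = 0.33 by the quasi-likelihood test in edgeR). Tob2, the closest paralog of Tob1, had medians of 34.9 CPM in WT (29.6 to 43.0) and 34.8 CPM in libraries labelled Tob-KO (27.4 to 43.4). Its log2 difference over all time points was 0.03, with a 95% interval from -0.09 to 0.16 (adjusted p = 0.85, same edgeR test). Btg3, a member with a similar BTG domain, was at -0.02 with an interval from -0.15 to 0.10 (adjusted p = 0.91, same edgeR test). In these 4 paralogs the outermost bounds of the intervals over all time points were thus 0.19 upward, for Btg1, and -0.29 downward, for Btg2.

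**Figure D2:**
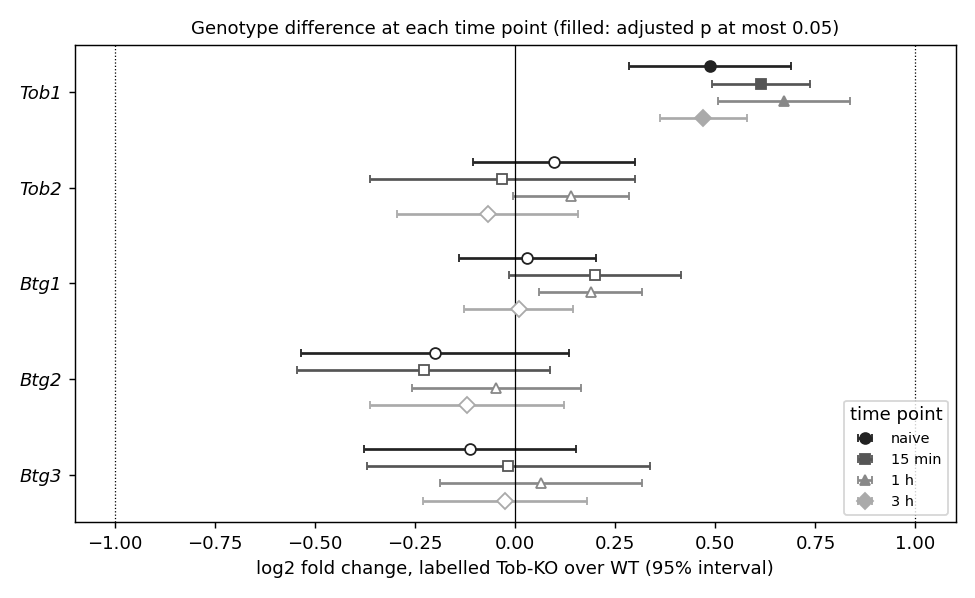
Log2 fold change of libraries labelled Tob-KO over WT (horizontal axis) for each member (vertical axis) at the 4 time points, with 95% intervals from the quasi-likelihood fit of 3 against 3 libraries. Filled symbols passed an adjusted p of at most 0.05 in the exact test, and dotted lines mark a 2-fold difference. Filled symbols are seen for Tob1 alone, between 0.47 and 0.67.

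The second question was which members changed after conditioning within a genotype, tested with edgeR's quasi-likelihood fit over all 24 libraries. The WT replicates of Btg2 read 20.1, 13.9 and 14.4 CPM when naive, then 43.8, 37.5 and 31.5 CPM at 15 min. Those labelled Tob-KO read 14.3, 14.3 and 13.5 CPM when naive, then 34.2, 26.2 and 35.9 CPM at 15 min. Every library at 15 min lay above every naive library of its genotype. Btg2 rose 2.33-fold in WT (log2 1.22, SE 0.14, adjusted p = 0.000496) and 2.29-fold in mice labelled Tob-KO (log2 1.20, SE 0.14, adjusted p = 0.000253). In WT it was the 1 member called of 5 and 1 of only 9 genes called in all, which is 0.0462% of 19500. The summed CPM of the choroid plexus markers was lower in every WT library at 15 min than in any naive WT library, while their mean log2 score overlapped, at -3.77 to -2.88 against -2.89 to 2.21. With this choroid plexus score as covariate the log2 changes of Btg2 were 1.20 in WT (adjusted p = 0.00239) and 1.19 in mice labelled Tob-KO (adjusted p = 0.00023). The 5 endothelial markers, none at 0 in all libraries, moved with Btg2. Their sum was 128 to 174 CPM in naive WT mice, 184 to 248 CPM at 15 min and 120 to 131 CPM at 3 h, and in mice labelled Tob-KO 142 to 151, 166 to 186 and 127 to 143 CPM. The 15 min libraries lay above the other groups in both genotypes. Blood cell markers summed to 50.1 to 72.7 CPM in naive WT mice, which overlapped their 15 min range. The part of endothelial and blood cells in the change of Btg2 was not tested. An edgeR fit of the 6 WT libraries alone gave the same log2 change of 1.22 without a call (adjusted p = 0.15).

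The rise of Btg2 was short. At 1 h the WT replicates of Btg2 read 21.3, 18.2 and 17.4 CPM, and those labelled Tob-KO read 19.9, 18.1 and 17.1 CPM. Each of these libraries lay below every library of the same genotype at 15 min. The change from naive at 1 h was not called, with a log2 difference of 0.23 in WT (adjusted p = 0.60) and 0.39 in mice labelled Tob-KO (adjusted p = 0.18), although the 3 Tob-KO libraries lay above their naive group. At 3 h the WT replicates read 14.6, 13.3 and 17.4 CPM, and those labelled Tob-KO read 14.2, 13.5 and 14.0 CPM, values that overlapped the naive groups. From 15 min to 3 h Btg2 fell by 1.32 on the log2 scale in WT (SE 0.14, adjusted p = 0.000149) and by 1.21 in mice labelled Tob-KO (SE 0.14, adjusted p = 0.000315). It was the 1 member of 5 called in each, against 0.528% of all genes in WT and 0.41% in mice labelled Tob-KO.

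**Figure D3:**
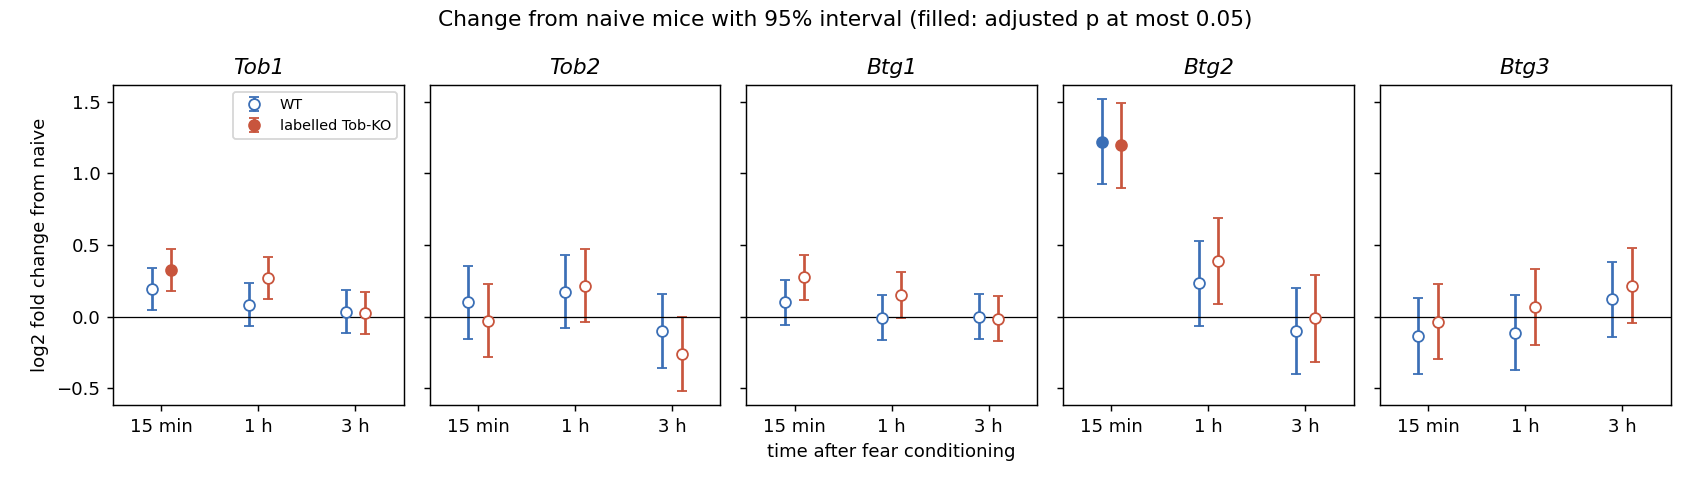
Log2 fold change from naive mice (vertical axis) against time after conditioning (horizontal axis) in each genotype, with 95% intervals. Filled symbols passed an adjusted p of at most 0.05. Filled symbols are seen for Btg2 at 15 min in both genotypes, at 1.22 and 1.20, and for Tob1 at 15 min in libraries labelled Tob-KO, at 0.33.

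Tob1 moved by far less than Btg2. In mice labelled Tob-KO, Tob1 rose 1.25-fold at 15 min (log2 0.33, SE 0.070, adjusted p = 0.0196), and the 3 libraries did not overlap the naive ones. With Btg2 this made 2 of 5 members called where 2.51% of all genes were. In WT the Tob1 libraries at 15 min overlapped the naive range, and the log2 difference of 0.19 was not called (SE 0.071, adjusted p = 0.51). The call in mice labelled Tob-KO was lost in an edgeR fit of those 6 libraries alone (adjusted p = 0.12) and without naive replicate 1 (0.061), naive replicate 3 (0.06) or 15 min replicate 3 (0.084). At 1 h the difference from naive was 0.27 in mice labelled Tob-KO (adjusted p = 0.0585) and 0.08 in WT (adjusted p = 0.73). By 3 h the log2 difference of Tob1 from naive was 0.04 in WT and 0.03 in mice labelled Tob-KO, neither called.

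Btg1 showed a like pattern without a call. Its replicates labelled Tob-KO read 31.3, 33.9 and 31.6 CPM when naive, then 37.3, 38.6 and 41.1 CPM at 15 min and 31.2, 31.9 and 32.7 CPM at 3 h. The log2 differences were 0.27 at 15 min from naive (SE 0.075, adjusted p = 0.0567) and -0.29 from 15 min to 3 h (adjusted p = 0.10), both by edgeR's quasi-likelihood test. The WT replicates read 30.4, 34.4 and 30.3 CPM when naive and 30.8, 39.1 and 32.1 CPM at 15 min, which overlapped (log2 0.10, adjusted p = 0.74). DESeq2, run as an alternative, called the Btg1 difference at 15 min in mice labelled Tob-KO (adjusted p = 0.0169).

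Tob2 and Btg3 were not called in any comparison over time. The replicates of Tob2 labelled Tob-KO read 34.7, 39.3 and 34.8 CPM when naive and 40.1, 43.4 and 43.0 CPM at 1 h. Tob2 thus had a log2 difference of 0.22, which was not called (adjusted p = 0.41, edgeR's quasi-likelihood test). Its 15 min groups were widely spread, at 30.4 to 43.0 CPM in WT and 31.5 to 43.2 CPM in mice labelled Tob-KO. Btg3 was the member with the lowest counts and lay between 7.48 and 11.4 CPM in all 24 libraries. Its highest group mean was at 3 h in both genotypes, at 10.7 ± 0.634 CPM in WT and 10.6 ± 0.547 CPM in mice labelled Tob-KO (SD, n = 3). The log2 difference of Btg3 from naive at 3 h was 0.12 in WT and 0.22 in mice labelled Tob-KO, neither called (adjusted p = 1 and 0.54).

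No member was called by edgeR at 1 h or 3 h against naive in either genotype, while DESeq2 called Tob1 at 1 h in mice labelled Tob-KO (log2 0.27, adjusted p = 0.0121). The share of all genes called at 1 h was 0.185% in WT and 1.13% in mice labelled Tob-KO. At 3 h it was 0% in both, with 779 genes in WT and 2071 in mice labelled Tob-KO at an unadjusted p under 0.05 by edgeR, and with 0 and 27 genes called by DESeq2.

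Whether the response differed between genotypes was tested by the interaction of genotype and time. No member and 0% of all genes were called by this term at any of the times by edgeR's quasi-likelihood test, while an unadjusted p under 0.05 was reached by 939, 809 and 924 genes, and DESeq2 called 0 at each. For Btg2 at 15 min the interaction was -0.02 on the log2 scale, with a 95% interval from -0.44 to 0.39. For Tob1 at 15 min it was 0.13 with an interval from -0.08 to 0.34, and for Btg1 0.17 with an interval from -0.05 to 0.39. The call of Tob1 at 15 min in mice labelled Tob-KO is thus not shown to differ from WT.

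Levels can be compared between genes only per length. Divided by the length of all annotated exons, Tob1 was highest in naive WT mice at 16.7 ± 2.0 CPM per kb (SD, n = 3). Btg1 at 6.01 ± 0.452, Btg2 at 5.88 ± 1.25 and Tob2 at 5.11 ± 0.495 CPM per kb came next, where the libraries of Btg2 overlapped those of both others but every Btg1 library lay above every Tob2 library, and Btg3 was lowest at 2.45 ± 0.297 CPM per kb. The order below Tob1 depended on the length used. With the transcript of the longest coding sequence, a length chosen after seeing the data, Tob2 was at 8.20 and Btg3 at 6.96 CPM per kb, against 6.34 for Btg1 and 5.88 for Btg2. At 15 min Btg2 reached 13.7 ± 2.24 CPM per kb of exons in WT and 11.7 ± 1.89 CPM per kb in mice labelled Tob-KO. Its share of the summed family level per kb of exons was 16.2% in naive WT mice and 29.1% at 15 min, and 12.1% and 20.9% in mice labelled Tob-KO. Tob1 made up 46.1% of this sum in naive WT mice and 55.2% in naive mice labelled Tob-KO. Tob1 was divided by the same exon length in both genotypes, although the extent of the deleted part is not given. The Tob1 level per kb, the family sum and all shares may therefore not be comparable between genotypes. A higher Tob1 count also lowers the share of Btg2.

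**Figure D4:**
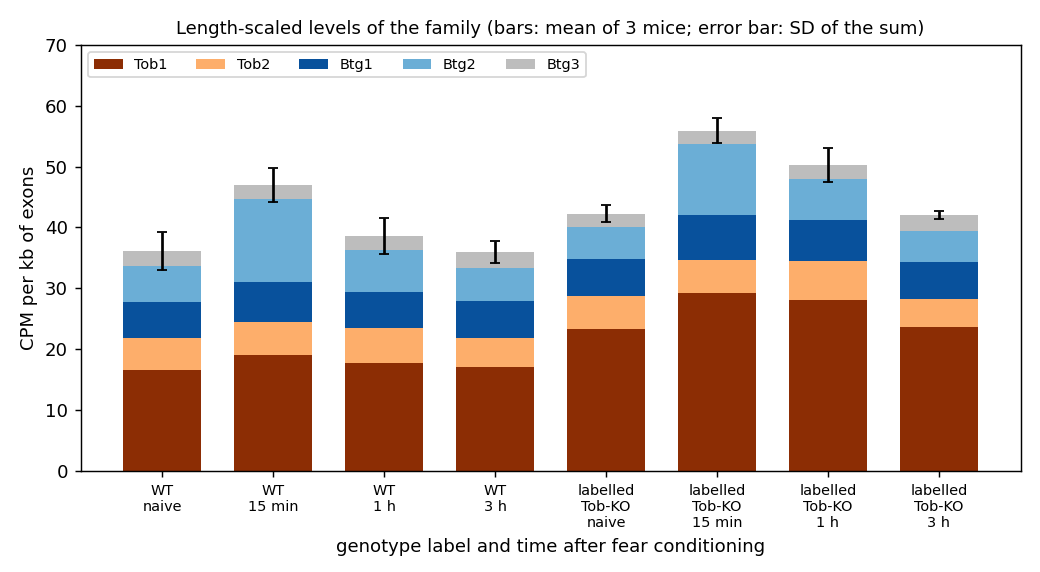
Stacked bars of the members' mean levels (vertical axis, CPM per kb of annotated exons) in the 8 groups (horizontal axis), with the SD of the sum over 3 libraries. The sum is 36.1 ± 3.10 in naive WT mice and 47.0 ± 2.78 at 15 min, and 42.3 ± 1.38 and 55.9 ± 2.12 in mice labelled Tob-KO. Tob1 is divided by the same exon length in both genotypes, so the sums may not be comparable between them.

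Btg2 was read beside a list of 18 immediate early genes, the genes first transcribed after neuronal stimulation. In WT at 15 min, 5 of the 18 were called higher and none lower. The median log2 change over the list was 0.72, with a range from -0.20 to 2.35. The genes called were Egr2 (log2 2.35), Fos (1.67), Npas4 (1.28), Ier2 (1.27) and Junb (0.96), beside 1.22 for Btg2. In mice labelled Tob-KO 10 of the 18 were called higher at 15 min, among them Egr2 (3.05), Fos (2.59) and Npas4 (1.96), with a list median of 0.73. Over all genes, 0.0462% were called in WT and 2.51% in mice labelled Tob-KO at 15 min. The interaction at 15 min was 0.70 for Egr2, 0.92 for Fos and 0.67 for Npas4. None of these was called (adjusted p = 0.98 each, edgeR's quasi-likelihood test). At 1 h 4 of 18 were called higher than naive in WT and 9 of 18 in mice labelled Tob-KO, and at 3 h none was called in either. Of all genes, 0.185% in WT and 1.13% in mice labelled Tob-KO were called at 1 h. The log2 change of Ier2 in WT was 1.27 at 15 min and 0.19 at 1 h, and that of Npas4 was 1.28 and -0.11, whereas Egr2 was at 1.96 at 1 h. From 15 min to 3 h 8 of the 18 were called lower in WT and 7 in mice labelled Tob-KO, where 0.528% and 0.41% of all genes were called. Between naive groups Arc (log2 -0.54, adjusted p = 2.10e-05, edgeR exact test) and Nr4a1 (-0.40, adjusted p = 0.00103) were lower in libraries labelled Tob-KO, and no gene of the list was called between genotypes at the other times or over all. Egr2 (-1.17), Fos (-1.11) and Npas4 (-0.84) also lay lower in naive libraries labelled Tob-KO, without a call. At 15 min these were at -0.48, -0.19 and -0.17, at 1 h at -0.41, -0.15 and -0.02, and at 3 h at -1.14, -0.83 and -0.63. The list median between genotypes was -0.33 when naive, -0.29 at 15 min, -0.08 at 1 h and -0.36 at 3 h. The median log2 difference over all genes lay within 0.01 of 0 in each comparison.

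**Figure D5:**
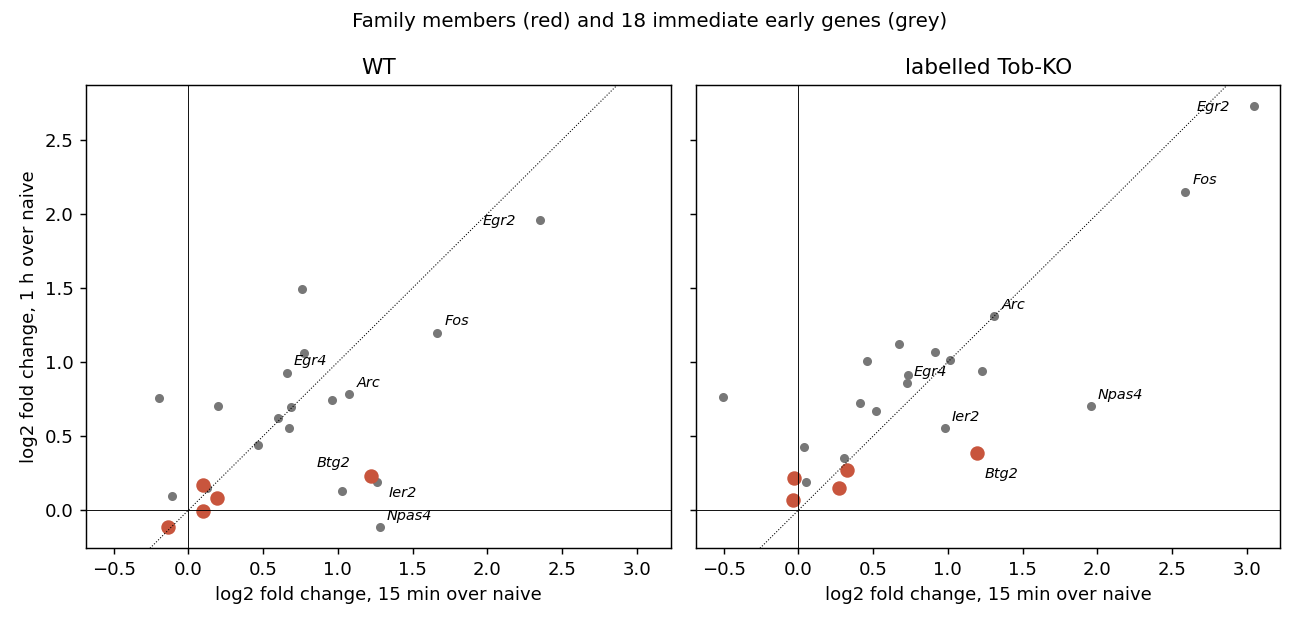
Log2 fold change from naive at 1 h (vertical axis) against that at 15 min (horizontal axis) in WT (left) and in libraries labelled Tob-KO (right), for the 5 members in red and 18 immediate early genes in grey. The dotted line marks equal change. Btg2 lies below the line near Ier2 in WT, at 1.22 and 0.23, and the other members lie within 0.33 of 0 on both axes.

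Over the 24 libraries, among 14558 genes with a mean of at least 1 CPM, the genes whose log2 CPM was most correlated with Btg2 were Npas4 (Pearson r = 0.93), Cyr61 (0.92) and Ier2 (0.91). Libraries of a group share their time point and genotype, so the coefficients are descriptions. Tob1 was closest to Utp18 (0.91), a ribosome assembly factor whose gene lies 0.326 Mb from Tob1 on the same chromosome, followed by Gsn (0.83) and Ncbp2 (0.79). For Tob2 they were Tiparp (0.83), Elmsan1 (0.82) and Nab2 (0.82), and for Btg1 Gas1 (0.76), Prkd3 (0.75) and a row whose symbol had been turned into a date (0.75). Btg3 had the lowest values, with Ecd (0.73), Zfp763 (0.71) and Slc2a13 (0.69). Between members the highest coefficient was 0.64, for Tob1 and Btg1, and that of Btg1 and Btg2 was 0.51.

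Genes of the family's molecular partners were read beside the share of all genes called, 0% to 2.51% over the 16 comparisons. This share was 2.51% in mice labelled Tob-KO at 15 min, 0.185% in WT at 1 h and 0.462% between genotypes over all time points. At such shares short lists hold few calls or none, so the counts below are not a result about the partners. At most 1 of the 12 CCR4-NOT genes, all tested, was called in any of the 16 comparisons. Cnot3, a regulatory subunit, was lower at 15 min in mice labelled Tob-KO (log2 -0.26, SE 0.060, adjusted p = 0.0287), and Cnot4, a ubiquitin ligase, was higher at 1 h in WT (0.28, SE 0.057, adjusted p = 0.0482). Among 5 genes for poly(A)-binding proteins and the Pan2-Pan3 deadenylase, Pan2 was lower at 15 min in mice labelled Tob-KO (log2 -0.45, SE 0.12, adjusted p = 0.0433). None of 4 Cpeb genes, whose RNA-binding proteins can recruit Tob to messages, was called in any comparison. The same held for 7 genes of ErbB2, ERK and SMAD signalling and for 7 genes of the p53 response. Prmt1 was not called either, and Hoxb9, a homeobox partner of Btg2, did not pass the filter. Of 7 cell cycle genes, Cdk4, a kinase of early division, was higher over all time points in libraries labelled Tob-KO (log2 0.15, SE 0.029, adjusted p = 0.0158), and the cyclins Ccnd1, Ccnd2 and Ccnd3 were not called in any comparison.

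The 3′ ends of the messages were scanned for ATTTA, the core of the AU-rich elements that can speed message decay, in the transcript with the longest coding sequence. Btg2 held 5 in 2199 untranslated bases, where 41.1% of 2653 genes of like length held at least as many. Btg1 held 11 in 4166 bases (26.0% of like genes), Tob1 3 in 767 bases (19.8%) and Tob2 4 in 2457 bases (58.4%). Btg3 had the densest set, with 4 in 439 bases, a number reached by 3.35% of like genes. The longer form TTATTTATT was not found in any of the 5.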

How the data were processed

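Hippocampal poly(A) RNA of 24 mice was sequenced by the authors as 150-base read pairs from a directional kit. Per the labels, reads were aligned with STAR 2.6.1d to GRCm38 and counted with HTSeq 0.9.0. The deposited values are raw counts per gene. The annotation and the strand setting are not given in the sources used here. Total counts were 28847989 to 41595972 per library, and precision was limited by 3 libraries a group. Groups came from the labels. Members are found by gene name alone, but this family and the gene lists were chosen with earlier results of these data known.

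Genotypes were compared at each time point after the study's methods, with the edgeR 4.0.16 exact test (TMM, at least 0.2 CPM in 2 libraries). Standard errors and 95% intervals came from the quasi-likelihood fit of the same libraries. Changes over time, interactions and genotype over all time points used edgeR's quasi-likelihood test on 24 libraries. Adjusted p-values are Benjamini-Hochberg over all genes tested, and the scripts were tested on simulated data. The study's 2-fold limit was an alternative, with RLE normalization, no filter, DESeq2 1.42.0, a replicate block, a choroid plexus covariate (mean log2 level of its markers), fits on other sets of libraries and leaving out each library.

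Genes named beside the members were relatives by name, listed partners that were called, the 3 genes most correlated with each member (mean of at least 1 CPM, prior count 2) and neighbours. Of the neighbours within 50 kb, those overlapping a member are described. Promoters are from RefSeq and all 5 members matched. 27 row names had been turned into dates.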

Additional observations from a re-analysis of the deposited data

How the results depend on the processing

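No called log2 difference of a member changed sign under any alternative run. Of 137 recomputed values of called differences 123 were still called and 14 were not, and of 998 values of uncalled ones 63 changed sign and 4 became called. The 2-fold limit, which leaves the values as they are, is not in these counts and is given below. The calls lost are named with their values in the report, apart from those of Tob1 between naive genotypes without the filter (adjusted p = 0.0526) and with the replicate block (0.53, and 0.40 at 3 h), and the cause of each change was not tested. The main counts of genes called between genotypes were 7 when naive, 137 at 15 min, 22 at 1 h and finally 12 at 3 h. The quasi-likelihood test gave 1, 1, 0 and 1, with 0 members called at any time but 15 min. With the study's 2-fold limit 0 members were called between genotypes at any time or over all, and the genes called were 4 in naive mice, 102 at 15 min, 6 at 1 h, 5 at 3 h and 5 over all. WT and Tob-KO are used here as labels. No filter on low counts left 0 members called in naive mice. The 24-library fit called 2 genes at 15 min, 4 at 1 h and 5 at 3 h. DESeq2 called 12 in naive mice, 60 at 15 min, 27 at 3 h and 293 over all, where the main count was 90 and the choroid plexus covariate gave 59.

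Over time the 2-fold limit left 4 genes called in WT at 1 h, 40 in Tob-KO at 15 min with 1 member, 23 in Tob-KO at 1 h, and 25 in WT and 17 in Tob-KO for 3 h against 15 min. A fit of the 6 libraries of each comparison called 0 genes and 0 members in WT at 15 min, 5 genes and 1 member in Tob-KO at 15 min, 123 genes in Tob-KO at 1 h, and 10 in WT and 25 in Tob-KO for 3 h against 15 min. DESeq2 called more genes, at 42 in WT and 956 in Tob-KO at 15 min, 180 in WT and 686 in Tob-KO at 1 h, 27 in Tob-KO at 3 h, and 326 in WT and 235 in Tob-KO for 3 h against 15 min. It also called 1 member in Tob-KO at 1 h, Tob1 (adjusted p = 0.0121), and 3 in Tob-KO for 3 h against 15 min, where Tob1 and Btg1 joined Btg2 (adjusted p = 0.00804 and 0.0303). Without the filter the count was 20 in WT at 15 min, 123 in Tob-KO for 3 h against 15 min and 1 for the interaction at 15 min, which was also 1 in a 12-library fit.

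The main fits did not pair the samples by replicate number. The correlation of same-numbered deviations ran from -0.418 to 0.36 over the comparisons, and in none was every pair over 0.1. For Tob-KO at 15 min against naive it was 0.319, 0.36 and 0.0565, so pairing was not excluded. With the replicate block, genes called between genotypes were 1 in naive mice, 8 at 15 min, 1 at 1 h and 0 at 3 h, and members called were 0 in naive mice and at 3 h. Over time the block gave 13 genes in WT at 1 h, 251 in Tob-KO at 15 min and 41 in Tob-KO at 1 h.

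Leaving out 1 library at a time, genes called between genotypes ranged from 7 to 103 in naive mice, 40 to 413 at 15 min, 12 to 400 at 1 h, 6 to 51 at 3 h and 41 to 141 over all, and members called from 0 to 1 in naive mice. Over time the ranges were 1 to 15 in WT and 40 to 817 in Tob-KO at 15 min, with 1 to 2 members in Tob-KO, 0 to 11 in WT and 0 to 250 in Tob-KO at 1 h, and 21 to 192 in WT and 31 to 60 in Tob-KO for 3 h against 15 min.

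The sign changes were all in uncalled differences, among them the interaction of Btg2 at 1 h, at 0.16 in the main fit. Btg1 in WT at 3 h against naive was -0.00013 in the main fit and 0.0043 with RLE normalization, 0.0015 without the filter, 0.0036 with the replicate block, 0.00022 with the choroid plexus covariate, 0.0059 in the 6-library fit and 0.0048 with DESeq2, and the interaction of Tob1 at 3 h was 0.011 with the choroid plexus covariate. The ranges over single libraries left out that crossed 0 were, between genotypes, -0.0081 to 0.087 for Btg1 in naive mice, -0.20 to 0.11 for Tob2 and -0.14 to 0.11 for Btg3 at 15 min, -0.11 to 0.044 for Btg2 and -0.021 to 0.17 for Btg3 at 1 h, -0.18 to 0.0013 for Tob2, -0.027 to 0.056 for Btg1 and -0.060 to 0.023 for Btg3 at 3 h, and -0.048 to 0.0025 for Btg3 over all. In WT against naive they were -0.037 to 0.21 for Tob2 and -0.011 to 0.17 for Btg1 at 15 min, -0.039 to 0.056 for Btg1 at 1 h, and -0.038 to 0.13 for Tob1, -0.041 to 0.064 for Btg1 and -0.21 to 0.092 for Btg2 at 3 h, and from 15 min to 3 h -0.17 to 0.011 for Btg1. In Tob-KO against naive they were -0.19 to 0.064 for Tob2 and -0.15 to 0.071 for Btg3 at 15 min and -0.036 to 0.022 for Btg1 and -0.040 to 0.016 for Btg2 at 3 h. For the interactions they were -0.29 to 0.010 for Tob2, -0.22 to 0.10 for Btg2 and -0.022 to 0.22 for Btg3 at 15 min, -0.038 to 0.11 for Tob2 and -0.036 to 0.25 for Btg2 at 1 h, and -0.11 to 0.070 for Tob1, -0.079 to 0.033 for Btg1 and -0.10 to 0.20 for Btg2 at 3 h.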
